A study of Mus musculus with 6 samples.

Results

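The genes described here are 9 of the feedback arm of the RAS-ERK pathway, 8 inhibitors and 1 target: the dual-specificity phosphatases *Dusp2*, *Dusp4*, *Dusp5* and *Dusp6*, the Sprouty genes *Spry1* and *Spry2*, the Sprouty-related genes *Spred1* and *Spred2*, and the ERK target gene *Etv5*. They were chosen by symbol from the 41128 genes of the deposited table, and all 9 are in it. Expression was compared between 3 *Hoxa9*/MTV leukemias (mice 1.1, 1.2 and 1.4) and 3 *Hoxa9*/*IRX3* leukemias (mice 3.2, 3.3 and 3.5), to see what the homeobox gene *IRX3* does to acute myeloid leukemia (AML) that *Hoxa9* drives. Both cohorts were made from KIT+ bone marrow (BM) cells of female CD45.1+ mice aged 6 to 12 weeks (the labels give the strain of the samples as C57BL/6, and the CD45.1+ line is a congenic of it), infected with retroviral *Hoxa9* together with either a human, MYC-tagged *IRX3* cDNA or the empty vector MTV, drug selected and transplanted into lethally irradiated female CD45.2+ recipients of the same age, which also received CD45.2+ BM cells. Donor-derived KIT+Gr1+ cells were flow sorted from thawed BM of mice with AML, and each library holds the polyA RNA of 1 mouse. Both introduced genes were expressed from retroviral vectors. Reads at mouse *Irx3* were found in the 3 *Hoxa9*/*IRX3* mice only, at 15.1, 0.421 and 0.148 RPKM in mice 3.2, 3.3 and 3.5. Whether they came from the human cDNA or from the mouse gene was not tested. Only the part of the human transcript that aligns to the mouse gene is seen in these values, so they may not rank the mice by *IRX3* expression and do not show that any of the 3 lacked it. *Hoxa9* was read at 340, 363 and 174 RPKM in the *Hoxa9*/MTV mice and 242, 154 and 221 RPKM in the *Hoxa9*/*IRX3* mice. Introduced and endogenous *Hoxa9* were not told apart in these values.

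Receptors such as KIT load RAS with GTP, RAS recruits RAF, RAF activates MEK, and MEK phosphorylates the ERK kinases. Active ERK turns on genes of its own inhibitors. DUSP phosphatases remove the phosphates from ERK, Sprouty proteins block the route from receptors to RAS and RAF, and SPRED proteins bring neurofibromin to the membrane, where it returns RAS to its inactive form. RNA of these genes is widely used as a readout of ERK signaling, though other pathways also act on several of them, and kinase activity was not analysed here.

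The values are RPKM, reads scaled to the length of the gene and to the size of the library, and the gene length used is the whole span from first to last base, introns included. The steps between low values gave back 7979246 to 9803621 reads per library, so that reads can be given beside RPKM. Tests covered the 9522 protein-coding genes that exceeded 0.5 RPKM in any mouse, on log2(RPKM + 0.5) with limma and Benjamini-Hochberg adjustment over all of them. This scale understates the change of weakly expressed genes. Of the 9 genes, 6 were tested. *Dusp4*, *Spred2* and *Etv5* stayed at or under 0.5 RPKM in all 6 mice. *Spry1* passed through the *Hoxa9*/*IRX3* mice alone, the cohort in which it was high.

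None of the 6 tested genes reached an adjusted p under 0.05 by limma, against 5.36% of all tested genes (3.52% lower and 1.84% higher in *Hoxa9*/*IRX3* cells). An unadjusted p under 0.05 was reached by 2 of the 6, *Dusp2* and *Spry1*, where 24.3% of all tested genes reached it (16% lower and 8.34% higher). The cohorts did not overlap for the same pair, *Dusp2* lower and *Spry1* higher in *Hoxa9*/*IRX3* cells, which is 33.3% of the 6 tested and close to the 33.7% found among all tested genes. The log2 fold change was below 0 for 4 of the 6 genes (57.5% of all tested genes) and had a median of -0.27 (-0.06 over all tested genes). It was at least 1 in size for 3 of them, *Dusp2*, *Dusp6* and *Spry1*, as against 6.82% of all tested genes. The differences thus ran in both directions, and the genes with the largest ones also had wide scatter between mice of 1 cohort.

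**Figure D1:**
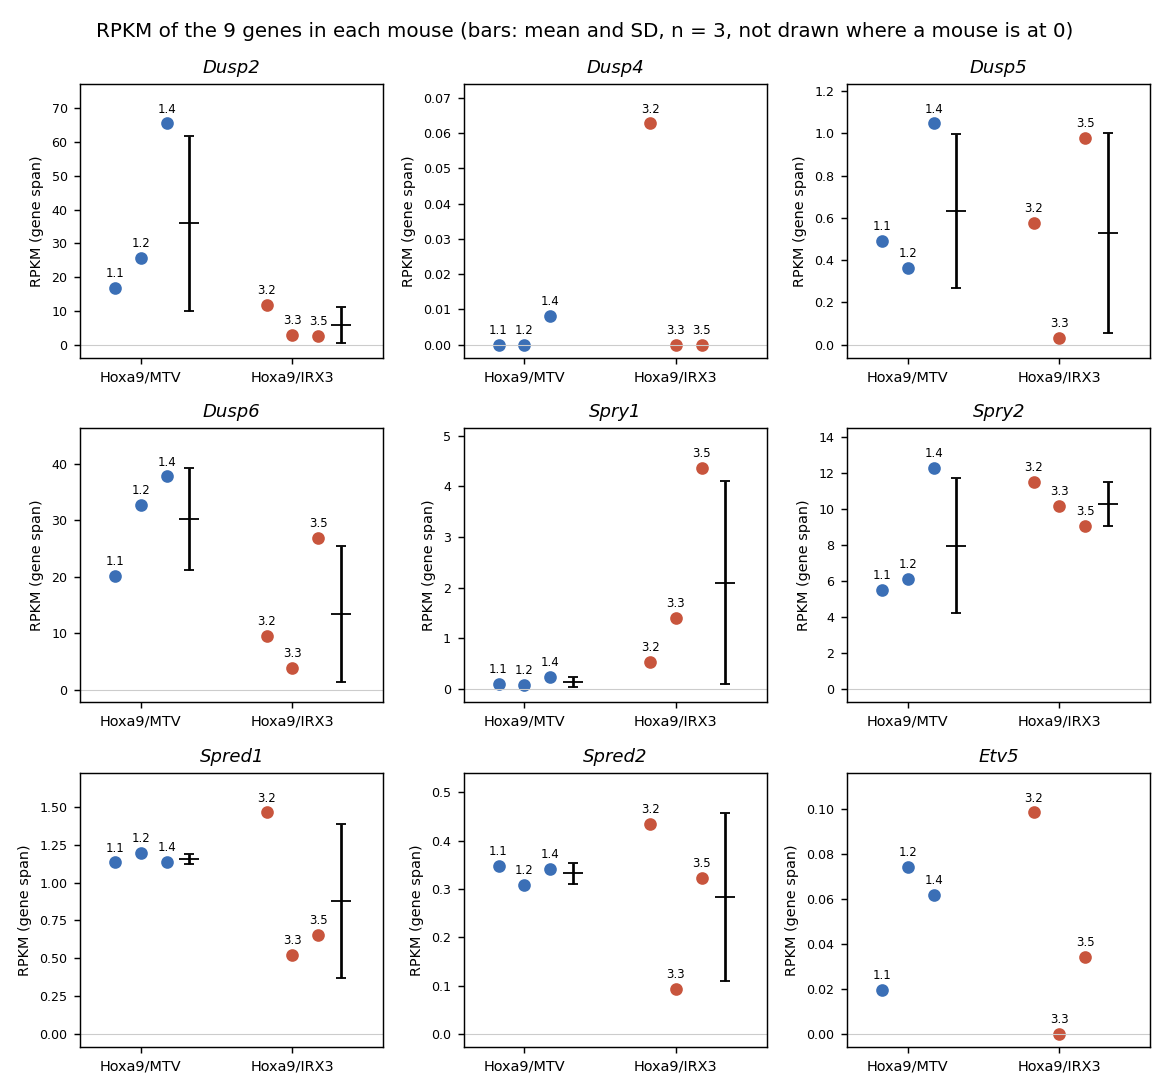
RPKM over the gene span (y axis, linear, its own scale in each panel) of the 9 genes in each *Hoxa9*/MTV (blue) and *Hoxa9*/*IRX3* (red) mouse, with the mean and SD of 3 mice in black except where a mouse is at 0. The cohorts do not overlap for *Dusp2* and *Spry1*, and they overlap for the other genes.

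Promoter sequence is shown for *Dusp2* and *Spry1*, whose cohorts do not overlap, and for *Dusp5*, the only gene with serum response elements among the 8 that had an entry. It comes from RefSeq on GRCm38.p6, which held 8 of the 9 genes (all but *Dusp4*), and covers up to 250 bases before the start of the gene, 5′ to 3′ on the strand of the gene, here the plus strand. Capitals mark matches to 1 of 6 motifs searched on both strands. *Dusp2*, chr2:127335909-127336158, has an Iroquois site and an E-box, whose first bases lie 225 and 109 bases before the start. *Spry1*, chr3:37639697-37639946, has no match. *Dusp5*, chr19:53528895-53529108, is cut to 214 bases so as to end before the annotated gene, and has a pair of adjoining serum response elements 82 and 72 bases before the RefSeq start.
Dusp2: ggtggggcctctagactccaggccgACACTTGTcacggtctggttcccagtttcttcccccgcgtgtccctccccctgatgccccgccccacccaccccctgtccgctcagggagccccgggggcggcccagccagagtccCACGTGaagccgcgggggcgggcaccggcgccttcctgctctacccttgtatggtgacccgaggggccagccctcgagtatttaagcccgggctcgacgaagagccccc
Spry1: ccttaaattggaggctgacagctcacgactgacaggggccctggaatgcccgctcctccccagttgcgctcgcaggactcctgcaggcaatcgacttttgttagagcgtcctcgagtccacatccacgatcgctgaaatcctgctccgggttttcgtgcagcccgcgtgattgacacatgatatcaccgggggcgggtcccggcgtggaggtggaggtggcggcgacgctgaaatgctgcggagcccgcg
Dusp5: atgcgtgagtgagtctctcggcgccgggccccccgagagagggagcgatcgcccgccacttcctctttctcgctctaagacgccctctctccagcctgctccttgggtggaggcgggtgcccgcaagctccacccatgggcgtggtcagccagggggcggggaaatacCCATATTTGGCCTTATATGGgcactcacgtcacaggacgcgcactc
Of 32851 mouse promoters of 250 bases, 6.31% held the Iroquois site ACANNTGT, 6.02% the E-box CACGTG, 4.46% the AP-1 site TGACTCA, 2.88% the ETS site CCGGAAGT, 1.55% the CRE TGACGTCA and 1.47% a serum response element. The windows of the other 5 genes that had an entry, *Dusp6*, *Spry2*, *Spred1*, *Spred2* and *Etv5*, held none of the 6 motifs. Those of *Spred2* and *Etv5* cover only 183 and 101 bases, less than the 250 bases behind these shares. A match describes these letters only, and binding was not analysed here.

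Levels can be compared between genes once reads are divided by exon length instead of the span, since exons make up 4.64% (*Spred2*) to 90.3% (*Dusp2*) of it. By the median over the 6 mice, the ERK phosphatase gene *Dusp6* was the highest, at 31.9 RPKM per exon length. *Spry2* followed at 22.5, *Dusp2* at 15.8, *Spred1* at 10.2 and *Spred2* at 7.18 RPKM per exon length. *Dusp5* was lower, at 2.88, *Etv5* at 0.685 and *Spry1* at 0.623, and *Dusp4* had a median of 0. The order differed between the cohorts. By means per exon length, *Dusp6* (41.0 RPKM), *Dusp2* (39.8), *Spry2* (18.6) and *Spred1* (10.4) led in the *Hoxa9*/MTV mice, and *Spry2* (23.9), *Dusp6* (18.2), *Spred1* (7.89) and *Dusp2* (6.36) in the *Hoxa9*/*IRX3* mice. Over all 6 mice, the range over mice of each gene overlapped that of its neighbour in the order of medians. Compared within each mouse, *Spred2* was above *Dusp5*, *Dusp5* above *Etv5* and *Spry1* above *Dusp4* in all 6 mice. The other neighbours changed order between mice. Genes further apart did separate in range, such as *Spry2* (12.8 to 28.6 RPKM per exon length in all mice) from *Dusp5* (0.165 to 5.64).

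**Figure D2:**
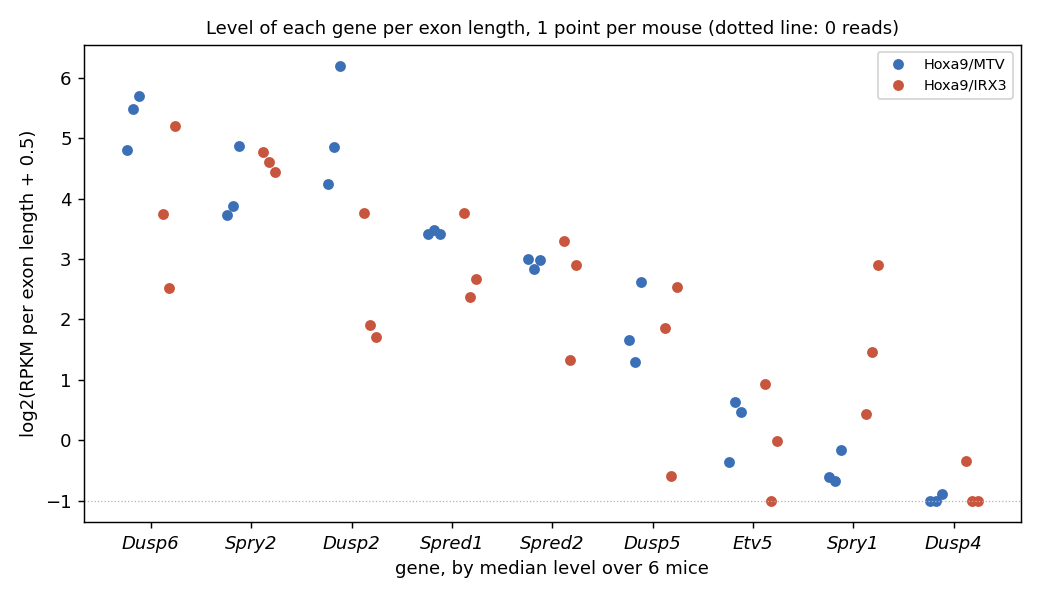
Level of each gene as log2(RPKM per exon length + 0.5) (y axis), 1 point per mouse, *Hoxa9*/MTV blue and *Hoxa9*/*IRX3* red, with genes ordered by their median over 6 mice. *Spry2* is high in both cohorts, and *Dusp6* and *Dusp2* are high in the *Hoxa9*/MTV mice. *Dusp6* is spread widely among the *Hoxa9*/*IRX3* mice. *Spred1* and *Spred2* have tightly grouped *Hoxa9*/MTV mice, and *Dusp4* lies at or near the line for 0 reads.

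Among the phosphatases, *Dusp2* had the largest difference between the cohorts. *Dusp2* (ENSMUSG00000027368, chromosome 2, 127336159 to 127338376, plus strand) encodes a nuclear, inducible phosphatase of blood cells that acts on ERK and other MAP kinases. It was read at 16.7, 25.6 and 65.5 RPKM in *Hoxa9*/MTV mice 1.1, 1.2 and 1.4, from 328, 471 and 1406 reads. In *Hoxa9*/*IRX3* mice 3.2, 3.3 and 3.5 it was at 11.8, 2.94 and 2.49 RPKM, from 232, 64 and 44 reads. All 3 *Hoxa9*/*IRX3* mice were below all 3 *Hoxa9*/MTV mice, yet mouse 3.2 came close, the lowest *Hoxa9*/MTV mouse being 1.42 times as high. The *Hoxa9*/MTV mean of 35.9 ± 26.0 RPKM (SD, n = 3) was 6.26 times that of the *Hoxa9*/*IRX3* cohort, 5.74 ± 5.25 RPKM (SD, n = 3). The log2 fold change was -2.62 (95% interval -4.26 to -0.99, SE 0.68, adjusted p = 0.0775 by limma), short of the threshold. Over all 20 assignments of the mice, the exact two-sided permutation p was 0.1, the smallest that 3 mice against 3 allow. Without mouse 3.2, *Dusp2* was called lower, with a log2 fold change of -3.27 (adjusted p = 0.0292 by limma). That fit called 8.13% of its 9360 genes, 5.41% as lower.

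*Dusp6*, the cytoplasmic phosphatase that is specific for ERK, differed less clearly. This gene (ENSMUSG00000019960, chromosome 10, 99263231 to 99267489, plus strand) was at 20.2, 32.6 and 37.8 RPKM in *Hoxa9*/MTV mice 1.1, 1.2 and 1.4. In mice 3.2, 3.3 and 3.5 it was at 9.49, 3.86 and 26.8 RPKM, from 358, 161 and 911 reads. Mice 3.2 and 3.3 were below all *Hoxa9*/MTV mice, while mouse 3.5 was within their range. Means were 30.2 ± 9.05 RPKM (SD, n = 3) and 13.4 ± 12.0 RPKM (SD, n = 3), with a log2 fold change of -1.49 (95% interval -3.02 to 0.05, SE 0.64, adjusted p = 0.217 by limma). Within the *Hoxa9*/*IRX3* cohort the highest mouse was 6.95 times the lowest, as against 1.87 times in the *Hoxa9*/MTV cohort. The difference depended on the mouse left out, at -0.85 without mouse 3.3 (adjusted p = 0.320 by limma) and -2.17 without mouse 3.5 (adjusted p = 0.0560 by limma).

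*Dusp2* and *Dusp6* did not keep to 1 ratio. Per exon length, *Dusp6* was 1.48, 1.57 and 0.707 times *Dusp2* in mice 1.1, 1.2 and 1.4. It was 0.987, 1.61 and 13.2 times *Dusp2* in mice 3.2, 3.3 and 3.5 (exact permutation test of the difference in mean log2 ratio, two-sided p = 0.4). Mouse 3.5 alone had far more *Dusp6* than *Dusp2* RNA, and the other 5 mice had similar amounts of both.

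*Dusp5* and *Dusp4* encode nuclear phosphatases that are also induced by ERK. *Dusp5* (ENSMUSG00000034765, chromosome 19, 53529109 to 53542431, plus strand) was at 0.492, 0.361 and 1.05 RPKM in mice 1.1, 1.2 and 1.4. It was at 0.576, 0.0306 and 0.978 RPKM in mice 3.2, 3.3 and 3.5, from 68, 4 and 104 reads. Mice 3.2 and 3.5 were within the range of the *Hoxa9*/MTV mice, and mouse 3.3 was far below it. The log2 fold change was -0.22 (95% interval -1.20 to 0.76, SE 0.41, adjusted p = 0.773 by limma) and turned to 0.03 without mouse 1.4 and to 0.20 without mouse 3.3. On the recovered reads with voom it was -1.27 (adjusted p = 0.525 by limma). An annotated antisense gene overlaps *Dusp5* by 547 bases, and whether the counting used strand is not given in the sources used here. *Dusp4* (ENSMUSG00000031530, chromosome 8, 34807297 to 34819894, plus strand) had 1 read in mouse 1.4, 7 reads in mouse 3.2 and 0 in the other 4 mice. A count of 0 allows up to 3 reads, or 0.0243 to 0.0298 RPKM of *Dusp4* in those 4 mice, by counting error only. *Dusp4* was therefore barely detectable in either cohort at this depth, and no fold is given.

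Of the Sprouty genes, *Spry1* differed from *Dusp2* in direction and was higher in the *Hoxa9*/*IRX3* mice, from very low values. *Spry1* (ENSMUSG00000037211, chromosome 3, 37639947 to 37644598, plus strand), an inhibitor of receptor tyrosine kinase signaling, was at 0.0972, 0.0776 and 0.244 RPKM in mice 1.1, 1.2 and 1.4. These values rest on 4, 3 and 11 reads. In mice 3.2, 3.3 and 3.5 it was at 0.534, 1.40 and 4.36 RPKM, from 22, 64 and 162 reads. All 3 *Hoxa9*/*IRX3* mice were above all 3 *Hoxa9*/MTV mice, the lowest of them 2.18 times the highest *Hoxa9*/MTV mouse, and they differed from each other by up to 8.18 times. Means were 0.140 ± 0.0912 RPKM (SD, n = 3) and 2.10 ± 2.01 RPKM (SD, n = 3), a ratio of 15.0. The log2 fold change of *Spry1* was 1.74 (95% interval 0.49 to 2.99, SE 0.52, adjusted p = 0.108 by limma). With voom on the recovered reads, a scale without the pseudocount of 0.5 RPKM, it was 3.38 (95% interval 0.20 to 6.57, adjusted p = 0.184 by limma). The exact two-sided permutation p was 0.1. Without mouse 3.2, *Spry1* was called higher, at 2.26 (adjusted p = 0.0320 by limma), in a fit that called 2.72% of its genes higher. Without mouse 3.5, which had the most *Spry1*, the log2 fold change was 1.14 (adjusted p = 0.0978 by limma). A gene model on the opposite strand, Gm42922, overlaps *Spry1* by 710 bases.

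*Spry2*, the close relative of *Spry1*, was the main Sprouty gene of these cells in both cohorts. *Spry2* (ENSMUSG00000022114, chromosome 14, 105891947 to 105896819, minus strand) was at 5.48, 6.11 and 12.3 RPKM in mice 1.1, 1.2 and 1.4. In mice 3.2, 3.3 and 3.5 it was at 11.5, 10.2 and 9.06 RPKM. The *Hoxa9*/*IRX3* mice were close together and inside the range of the *Hoxa9*/MTV mice. Means were 7.95 ± 3.75 RPKM (SD, n = 3) and 10.2 ± 1.22 RPKM (SD, n = 3), with a log2 fold change of 0.43 (95% interval -0.29 to 1.14, SE 0.30, adjusted p = 0.413 by limma).

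Set beside each other within a mouse, the Sprouty genes gave a graded picture. Per exon length, *Spry2* was 82.2, 115 and 73.2 times *Spry1* in mice 1.1, 1.2 and 1.4. In mice 3.2, 3.3 and 3.5 it was 31.4, 10.6 and 3.03 times *Spry1*, below all the *Hoxa9*/MTV mice (exact permutation test of the difference in mean log2 ratio, two-sided p = 0.1). *Spry1* made up 1.20%, 0.864% and 1.35% of the sum of both in the *Hoxa9*/MTV mice, and 3.09%, 8.64% and 24.8% in mice 3.2, 3.3 and 3.5. The ratio does not depend on library size, but the same low *Spry1* reads set it.

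*Spred1* and *Spred2*, which act on RAS through neurofibromin, were steady among the *Hoxa9*/MTV mice. *Spred1* (ENSMUSG00000027351, chromosome 2, 117121374 to 117182279, plus strand) was at 1.13, 1.19 and 1.14 RPKM in mice 1.1, 1.2 and 1.4. It was at 1.46, 0.521 and 0.652 RPKM in mice 3.2, 3.3 and 3.5, from 790, 311 and 317 reads. Mouse 3.2 was above every *Hoxa9*/MTV mouse, and mice 3.3 and 3.5 were below every one. The log2 fold change was -0.32 (95% interval -0.91 to 0.26, SE 0.25, adjusted p = 0.453 by limma). Without mouse 3.2, *Spred1* was called lower, at -0.61 (adjusted p = 0.0407 by limma).

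*Spred2* (ENSMUSG00000045671, chromosome 11, 19924375 to 20024026, plus strand) was under the 0.5 RPKM needed for the test because its reads are divided by a span that is mostly intron. Its RPKM were 0.347, 0.308 and 0.342 in mice 1.1, 1.2 and 1.4 and 0.435, 0.0931 and 0.323 in mice 3.2, 3.3 and 3.5, from 91 to 384 reads. As with *Spred1*, mouse 3.2 was the highest and mouse 3.3 the lowest of all. Per exon length *Spred2* ranged from 6.65 to 7.49 RPKM among *Hoxa9*/MTV mice, while mice 3.2, 3.3 and 3.5 had 9.38, 2.01 and 6.97 RPKM. A fit on exon length, chosen after seeing the data, gave a log2 fold change of -0.43 (95% interval -1.57 to 0.72, adjusted p = 0.612 by limma), in which 6.03% of 11856 genes were called.

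*Etv5*, an ETS family transcription factor and a target of ERK, not an inhibitor of it, was weakly expressed. *Etv5* (ENSMUSG00000013089, chromosome 16, 22381309 to 22439719, minus strand) had 10, 36 and 35 reads in mice 1.1, 1.2 and 1.4 and 51, 0 and 16 reads in mice 3.2, 3.3 and 3.5. Its RPKM ranged from 0 in mouse 3.3, where a count of 0 allows up to 0.00524 RPKM, to 0.0985 in mouse 3.2. The lowest and the highest mouse were thus both of the *Hoxa9*/*IRX3* cohort. With no filter on low values the log2 fold change of *Etv5* was -0.02 (adjusted p = 0.895 by limma), in a fit that called 3.04% of 14755 genes. On exon length it was -0.28 (95% interval -1.56 to 1.01, adjusted p = 0.779 by limma).

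**Figure D3:**
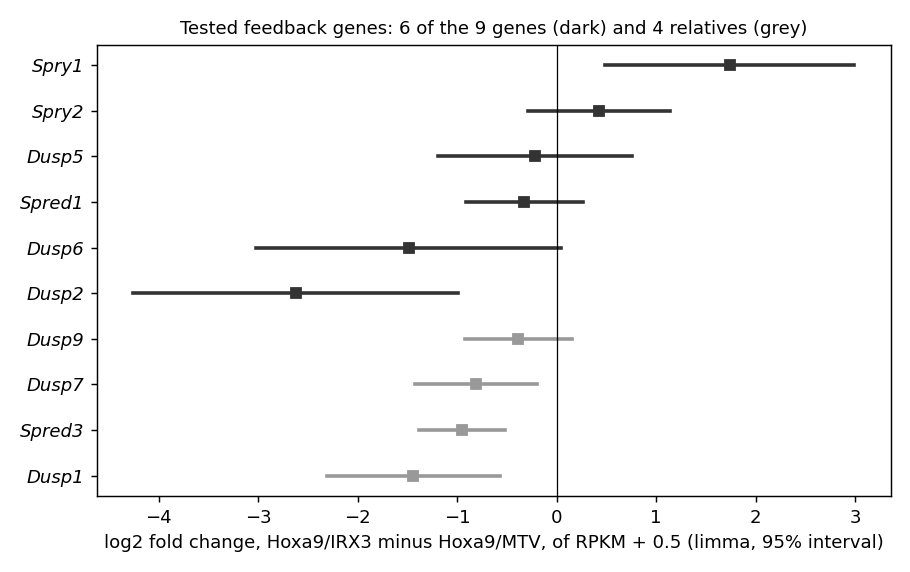
Log2 fold change of RPKM + 0.5, *Hoxa9*/*IRX3* minus *Hoxa9*/MTV (x axis), with the 95% interval from limma, for the 6 tested genes of the set (dark) and the 4 tested relatives (grey). *Dusp2* lies at -2.62 and *Spry1* at 1.74, the intervals of *Spry2*, *Dusp5*, *Spred1* and *Dusp6* include 0, and all 4 relatives lie below 0.

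Single mice stood out across the set. Of the 8 genes with 1 lowest mouse, 5 (*Dusp5*, *Dusp6*, *Spred1*, *Spred2* and *Etv5*) were lowest in mouse 3.3, which was the lowest mouse for 16.4% of all tested genes. Mouse 3.2 was the highest for *Dusp4*, *Spred1*, *Spred2* and *Etv5*, and mouse 1.4 for *Dusp2*, *Dusp5*, *Dusp6* and *Spry2*. Those mice were highest for 20.4% and 20.1% of all tested genes. Most of the 6 tested genes also varied more within a cohort than the median tested gene. On log2(RPKM + 0.5) the SD among *Hoxa9*/*IRX3* mice was 1.33 for *Dusp6*, 1.13 for *Spry1*, 1.12 for *Dusp2*, 0.76 for *Dusp5* and 0.50 for *Spred1*, where the median tested gene had 0.24. Only *Spry2*, at 0.16, was below that median. Among *Hoxa9*/MTV mice it was 0.99 for *Dusp2*, 0.59 for *Spry2*, 0.47 for *Dusp6*, 0.44 for *Dusp5* and 0.20 for *Spry1*, above the median of 0.12, and 0.03 for *Spred1*.

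**Figure D4:**
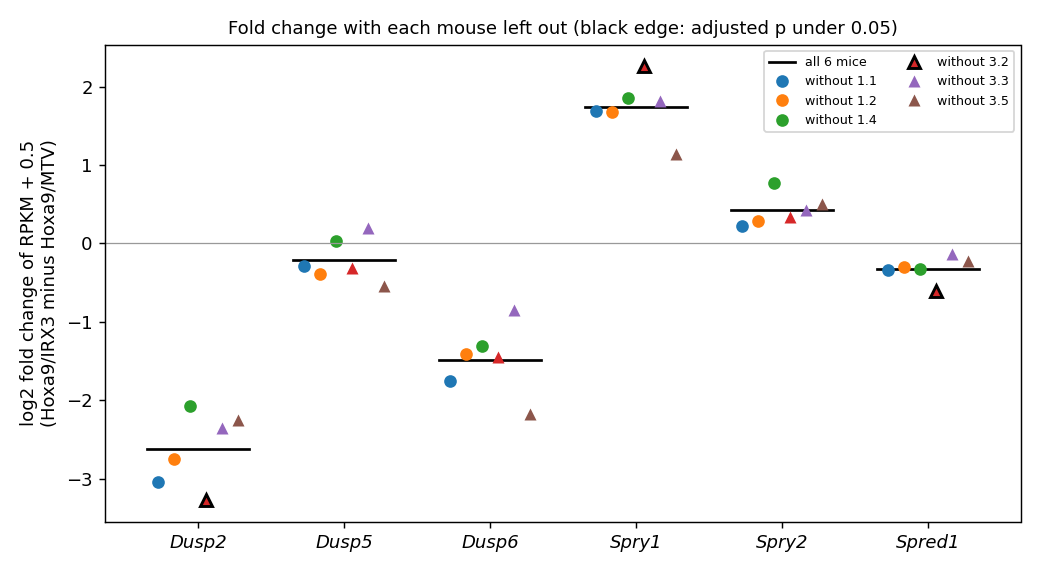
Log2 fold change of RPKM + 0.5 (y axis) of the 6 tested genes with all 6 mice (black line) and with each mouse left out in turn (circles *Hoxa9*/MTV, triangles *Hoxa9*/*IRX3*), where a black edge marks an adjusted p under 0.05 by limma. The only such points are *Dusp2*, *Spry1* and *Spred1* without mouse 3.2, and *Dusp5* crosses 0.

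The rest of the inhibitor families was read from a list of 10 relatives, 9 of them in the table and 4 tested. *Spred3*, the third SPRED gene, fell (log2 fold change -0.95, SE 0.18, adjusted p = 0.0372 by limma), from 0.709, 0.579 and 0.338 RPKM in the *Hoxa9*/MTV mice to 0.0512, 0.0278 and 0.0228 RPKM in the *Hoxa9*/*IRX3* mice. It was the only one of the 4 that passed the test, where 3.52% of all tested genes were called lower. It exceeded 0.5 RPKM in *Hoxa9*/MTV mice alone, so that it entered the test through the cohort where it was high. *Dusp1*, a nuclear phosphatase of stress-activated MAP kinases and an immediate early gene, was at 18.8, 39.6 and 46.0 RPKM and at 9.82, 15.7 and 10.3 RPKM, with no overlap (-1.44, adjusted p = 0.0731 by limma). *Dusp7* was also lower with no overlap (-0.81, adjusted p = 0.120 by limma), and the cohorts overlapped for *Dusp9* (-0.38, adjusted p = 0.334 by limma). Of all tested genes, 21.6% were lower with no overlap. The median of the 4 was -0.88, against -0.06 over all tested genes. *Spry4* was at or near 0 in all 6 mice, at most 0.0226 RPKM.

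Other genes that ERK induces are a list of 18, of which 9 were tested, 2 called lower (3.52% of all tested genes) and none higher (1.84%), with a median log2 fold change of -0.57. *Ccnd1*, the cyclin D1 gene, fell from 3.71, 6.60 and 2.76 RPKM to 0.159, 0.0308 and 0.151 RPKM (-2.91, SE 0.28, adjusted p = 0.00553 by limma), and entered the test through the *Hoxa9*/MTV mice alone. *Fos*, an immediate early gene, fell from 152, 249 and 161 RPKM to 26.1, 58.7 and 10.9 RPKM (-2.81, SE 0.58, adjusted p = 0.0444 by limma). *Egr1*, another immediate early gene, was at 28.9, 25.0 and 58.5 RPKM against 5.66, 15.6 and 0.219 RPKM, which did not pass (-3.09, adjusted p = 0.147 by limma). *Etv4*, a close relative of *Etv5*, was at 0 to 0.116 RPKM and was not tested.

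In the kinase core of the pathway, none of 13 tested genes for RAS, RAF, MEK, ERK and their scaffolds was called, of 16 in the table. Since 5.36% of all tested genes were called, no call in so short a list is close to that share. An unadjusted p under 0.05 by limma was reached by 2 of them, where 24.3% of all tested genes reached it. These were *Braf*, higher (0.52), and *Araf*, lower (-0.46), and the cohorts did not overlap for either. The median log2 fold change of the 13 was 0.10. *Mapk3*, which encodes ERK1, was at 12.5 to 15.3 and 16.0 to 19.2 RPKM (0.33, adjusted p = 0.212 by limma). None of the 9 tested genes for adaptors and RAS exchange factors was called either (median -0.02, 2 with an unadjusted p under 0.05).

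On either side of the kinases 2 of 6, 1 of 12 and 1 of 8 tested genes were called, where 5.36% of all tested genes were, and lists this short are given as counts only. In the same order, 1, 1 and 1 genes were higher and 3, 1 and 2 lower at an unadjusted p under 0.05 by limma. Over all tested genes, 8.34% were higher and 16% lower at that level. The higher ones were *Dab2ip* (0.59, adjusted p = 0.111 by limma), *Ets1* and *Csf3r* (0.60, adjusted p = 0.166 by limma). Of 6 tested genes for RAS GTPase activating proteins, which switch RAS off as SPRED and neurofibromin do, 2 fell. *Rasal3*, expressed in blood cells, fell from 7.33, 7.83 and 8.62 RPKM to 3.41, 3.90 and 3.58 RPKM (-1.03, SE 0.12, adjusted p = 0.00914 by limma). *Rasa4* fell from 3.93, 3.45 and 3.36 RPKM to 0.162, 1.52 and 0.157 RPKM (-2.09, SE 0.43, adjusted p = 0.0449 by limma). Of 12 tested ERK effectors, *Ets1*, a transcription factor that ERK phosphorylates, alone was called and rose from 0.660, 0.340 and 0.473 RPKM to 2.28, 1.84 and 4.63 RPKM (1.71, SE 0.30, adjusted p = 0.0304 by limma). Of 8 receptors that feed the pathway, *Flt3* fell (-1.35, SE 0.16, adjusted p = 0.0102 by limma), from 0.604 to 0.999 RPKM down to 0.00162 to 0.0252 RPKM, and it too exceeded 0.5 RPKM in *Hoxa9*/MTV mice alone. *Kit*, whose protein was used to sort the cells, was at 2.48 to 3.12 and 1.63 to 2.70 RPKM (-0.31, adjusted p = 0.323 by limma).

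**Figure D5:**
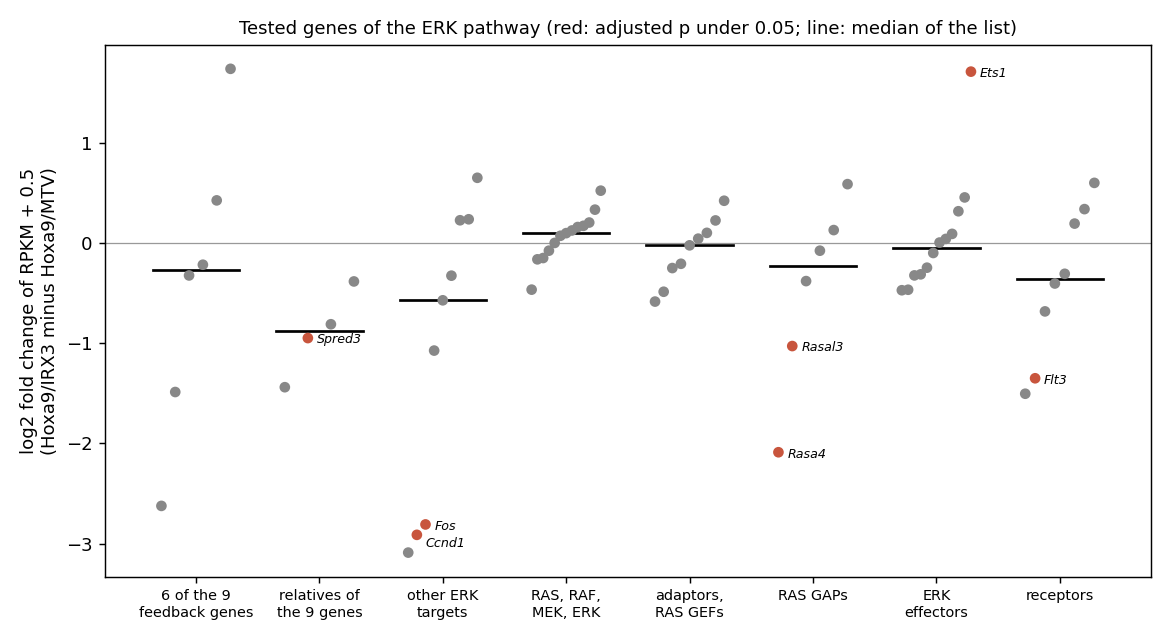
Log2 fold change of RPKM + 0.5 (y axis) of each tested gene in the set and in 7 lists of the ERK pathway, red where the adjusted p was under 0.05 by limma, with a line at the median of each list. The RAS, RAF, MEK and ERK genes lie close to 0, and the calls are *Spred3*, *Ccnd1*, *Fos*, *Rasa4*, *Rasal3*, *Ets1* and *Flt3*.

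Genes of other cells and of the stress response moved between the cohorts too, and in bulk RNA fewer cells of a type and less RNA per cell cannot be told apart. Of 12 handling stress genes, all were tested and 2 fell, *Fos* and *Nr4a1*, where 3.52% of all tested genes were called lower. *Nr4a1* exceeded 0.5 RPKM in *Hoxa9*/MTV mice alone. The log2 fold change of all 12 was below 0, as it was for 57.5% of all tested genes. Their summed level was 791 to 1326 RPKM in *Hoxa9*/MTV and 201 to 578 RPKM in *Hoxa9*/*IRX3* mice. *Fos*, *Egr1* and *Ier2* are also in the list of genes that ERK induces, so *Fos* is counted in each of these lists. Of 8 monocyte and macrophage markers, 5 were tested and 2 fell, *Ccr2* (-2.06, adjusted p = 0.00843 by limma) and *Cd68* (-2.68, adjusted p = 0.0135 by limma), with sums of 98.7 to 122 and 14.7 to 30.3 RPKM. The sums of the stress list and the monocyte list, like *Dusp2*, were lower in every *Hoxa9*/*IRX3* mouse than in any *Hoxa9*/MTV mouse. The part of these genes in the level of *Dusp2* was not tested. *C1qa*, a macrophage marker, was at 0 in 5 of the 6 mice. Of the 8 markers of the sorted cells, *Ly6g*, a gene of the Gr1 antigen, rose (1.35, adjusted p = 0.0205 by limma), having exceeded 0.5 RPKM in *Hoxa9*/*IRX3* mice alone, and so did *Elane*, the neutrophil elastase gene (1.91, adjusted p = 0.0144 by limma), while *Ly6c1* was not tested and reached at most 0.391 RPKM. Of the 7 tested markers of the sorted cells, 5 had a log2 fold change above 0. The 2 below 0 were *Kit* (-0.31) and *Itgam* (-0.47, adjusted p = 0.622 by limma). Summed, the 8 markers were at 1544 to 2292 and 4151 to 4933 RPKM, nearly all of it *Elane*, *Mpo* and *Ly6c2*.

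Markers of lymphoid and stromal cells differed by gene. The 8 T and NK cell markers summed to 22.7 to 33.0 RPKM in *Hoxa9*/MTV and 14.9 to 482 RPKM in *Hoxa9*/*IRX3* mice, nearly all of it *Nkg7*, which was at 32.9, 32.8 and 22.6 RPKM in mice 1.1, 1.2 and 1.4 and at 100.2, 14.9 and 482 RPKM in mice 3.2, 3.3 and 3.5, while *Cd3d* and *Ncr1* were at 0 in all mice. The 8 stroma and endothelium markers summed to 1.83 to 1.98 and 0.569 to 6.35 RPKM, mostly *Pecam1*, which ranged from 1.83 to 1.90 RPKM among *Hoxa9*/MTV mice, while mice 3.2, 3.3 and 3.5 had 0.410, 2.79 and 5.88 RPKM. The 8 B cell markers summed to 6.35 to 7.30 and 0.652 to 5.03 RPKM, with *Pax5* and *Ms4a1* at 0 in all mice. *Cd79b* fell from 6.11, 7.07 and 7.01 RPKM to 0.330, 0.149 and 2.31 RPKM (-2.65, adjusted p = 0.0383 by limma). *Vpreb1* went the other way without a call (1.08, adjusted p = 0.272 by limma). It was at 0.231, 0.376 and 2.72 RPKM in mice 3.2, 3.3 and 3.5, above every *Hoxa9*/MTV mouse, and exceeded 0.5 RPKM in mouse 3.5 alone. Mature neutrophil markers summed to 1055 to 1634 and 695 to 1726 RPKM. Of the 8, all tested, only *Retnlg* was called, as higher (1.75, adjusted p = 0.0285 by limma). The log2 fold change was above 0 for 5 of them and below 0 for 3, with a median of 0.10. Those below 0 were *Ltf* (-0.99, adjusted p = 0.315 by limma), *Mmp8* (-0.75, adjusted p = 0.320 by limma) and *Ngp* (-0.13, adjusted p = 0.870 by limma). Dendritic cell markers summed to 3.13 to 3.44 and 0.113 to 4.67 RPKM, with *Ccr7* at 0 and *Flt3* the gene that fell. Mast cell and basophil markers summed to 16.1 to 21.8 and 4.80 to 8.02 RPKM, with *Cpa3* (-1.40, adjusted p = 0.0432 by limma) and *Gata2* (-2.62, adjusted p = 0.0166 by limma) lower. *Ms4a2* of the same list was higher in every *Hoxa9*/*IRX3* mouse without a call (0.66, adjusted p = 0.103 by limma). *Cpa3* exceeded 0.5 RPKM in *Hoxa9*/MTV mice alone. Megakaryocyte markers summed to 3.88 to 5.97 and 1.62 to 12.8 RPKM, with none called. Of 8 erythroid markers, 5 were at 0 in all mice and none was tested. What part any of these cells had in *Spry1* or *Dusp2* was not tested.

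The genes most like *Dusp6* over the 6 mice, among the 2535 tested genes whose mean reached 5 RPKM, were *Max*, a dimerization partner of MYC (Pearson's r = 0.992 on log2(RPKM + 0.5)), *St6galnac4*, a sialyltransferase gene (0.986), and *Sash3*, an adaptor gene of blood cells (0.981). In all, 47 genes had an r over 0.9. The genes most like *Etv5* were *Hdgf* (0.980), *Pgam5* (0.973) and *Fam46a* (0.954), and 18 genes had an r over 0.9. *Max* ranged only from 6.06 to 7.66 RPKM and *Hdgf* from 43.6 to 57.8 RPKM. These correlations describe 6 points that share library and cohort, and those of *Etv5* rest on 0 to 51 reads. Among the 6 tested genes, *Dusp2* and *Spry1* ran in opposite order (r = -0.84), while *Dusp5* and *Dusp6* (0.77) and *Dusp2* and *Spred1* (0.75) ran together.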

How the data were processed

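RNA of 6 leukemias, 3 per cohort, was measured with 1 library per mouse, and cohorts were taken from the sample labels. Nothing ties mouse numbers across the cohorts, and whether mice of a cohort received cells of 1 infection is not given in the sources used here. The authors prepared strand-specific polyA libraries from 200 ng of RNA with 14 amplification cycles, sequenced 75 bases from both ends, and aligned to GRCm38 with Bowtie2 2.2.1, which does not split reads over introns. They filtered with SAMtools 0.1.19 (unaligned, non-primary and Phred under 20), assigned reads to Ensembl release 76 genes, and deposited RPKM per gene and mouse. The RPKM divide by the gene span. Reads were recovered from steps in low values and were whole within 0.01 in all mice for 65.0% of tested genes. For *Dusp6* and *Spry2* they are rounded. Limits on reads cover counting error only. Intervals of the fold changes come from limma and rest on the variation between mice. PCR copies were not told apart.

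Log2(RPKM + 0.5) of 9522 protein-coding genes over 0.5 RPKM in at least 1 mouse was fitted with limma 3.58.1 (lmFit, eBayes with a variance trend) in R 4.3.3, with Benjamini-Hochberg adjustment over all of them, and a gene was called at an adjusted p under 0.05. Single values were tested with exact permutation tests over 20 assignments (scipy 1.17.1, Python 3.11.15, numpy 2.4.6, pandas 2.3.3, matplotlib 3.10.9). Scripts were tested on simulated data. Exon lengths and gene types came from GENCODE M21 and promoters from RefSeq, with chromosome 18 left out of motif shares.

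The 9 genes and all lists were chosen with earlier results of these data known. Named from the lists were genes with an adjusted p under 0.05, at most 4 per list by size of change, with *Dusp1*, *Spry4*, *Spred3*, *Etv4*, *Egr1*, *Fos*, *Kit* and *Mapk3* always, and for *Dusp6* and *Etv5* the 3 most correlated genes. A gene that this rule also names is not reported here. *C1qa*, *Csf1r*, *Csf3r*, *Nkg7*, *Pecam1*, *Ly6c1*, *Ly6c2*, *Mpo*, *Itgam*, *Braf*, *Araf*, *Dab2ip*, *Dusp7*, *Dusp9*, *Ier2*, *Ltf*, *Mmp8*, *Ngp*, *Vpreb1*, *Ms4a2* and markers at 0 were named after their values were seen. Alternatives were other pseudocounts, filters, gene types, scalings, variance models and sample weights, voom on recovered reads, the criterion of the study (unpaired, unadjusted p under 0.05 and means over 2-fold apart), each mouse left out, and, added after seeing the data, exon length. All value columns of the table were used.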

Additional observations from a re-analysis of the deposited data

How the results depend on the processing

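Over 19 alternatives, 109 of 114 log2 fold changes of the 6 tested genes kept their direction and their side of the threshold. The 3 that newly passed it were *Dusp2*, *Spry1* and *Spred1* without mouse 3.2. *Dusp5* reversed to 0.03 without mouse 1.4 and to 0.20 without mouse 3.3. Leaving out each mouse in turn gave 0 to 1 of these genes called higher and 0 to 2 called lower, and every other alternative gave 0. The criterion of the study was met by 0 of them and by 6.97% of all tested genes. By leaving out a mouse, log2 fold changes ranged from -3.27 to -2.08 (*Dusp2*), -2.17 to -0.85 (*Dusp6*), -0.54 to 0.20 (*Dusp5*), -0.61 to -0.14 (*Spred1*), 0.22 to 0.77 (*Spry2*) and 1.14 to 2.26 (*Spry1*). Over all genes, 510 were called, 326 with all gene types tested, 61, 66 and 76 without mouse 1.4, 1.2 or 1.1, 482, 678 and 761 without mouse 3.5, 3.3 or 3.2, and 448 to 548 under the other settings, with 664 by the criterion of the study and 715 on exon length. These differences in count were not tested for a cause. No scaling moved the median of all genes by over 0.1. No paired analysis was possible because no mouse number is shared by both cohorts. Depth limits *Dusp4*, *Etv5* and *Spry1*, which rest on few reads, and the 3 mice per cohort limit the exact p to 0.1.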
